A study of Homo sapiens with 4 samples.

Results

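Genes that are recurrently altered in leiomyosarcoma, a malignant tumour of smooth muscle, were followed in γH2AX peak lists from SK-UT-1, an established uterine leiomyosarcoma line. The 8 genes, RB1, RBL2, CDKN2A, CCNE1, NF1, IGF1R, MED12 and DMD, were chosen by symbol for these alterations, out of 19974 protein-coding genes of chromosomes 1 to 22 and X. Each gene was represented by its RefSeq extent on GRCh38 plus 5 kb on either side, called its window here, and every peak that overlapped the window was counted. The libraries came from cells given 1 µM OTS186935, an inhibitor of the histone methyltransferase SUV39H2, from cells given 0.5 µM doxorubicin, a topoisomerase II poison, from cells given these drugs together at the same doses (the combination), and from cells given 0.1% DMSO as the vehicle. Each condition had 1 library, which allows no test between conditions, and values are set side by side. The lists hold no expression values, so the identity of the cell line was not checked against marker genes.

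γH2AX is the histone variant H2A.X phosphorylated on its C-terminal tail, a mark that damage kinases place on chromatin around DNA double-strand breaks. The genes belong to circuits that these tumours disable or overuse. The pocket proteins encoded by RB1 and RBL2 hold back E2F transcription factors at the entry to S phase, the CDKN2A locus encodes the inhibitors p16INK4a and p14ARF, and CCNE1 encodes cyclin E1, which drives the inactivation of the pocket proteins. NF1 encodes neurofibromin, a brake on RAS, IGF1R a receptor tyrosine kinase for insulin-like growth factors, MED12 a subunit of the Mediator kinase module that is often mutated in uterine smooth muscle tumours, and DMD dystrophin, the link between the cytoskeleton and the extracellular matrix in muscle.

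The start-site sequences of MED12, RBL2, CCNE1 and NF1 are shown because these are the genes with a peak over or within 250 bp of an annotated 300-base start-site window (250 bases before and 50 after the start; RefSeq sequences, build GRCh38.p14, all on the plus strand, 5′ to 3′). In MED12 (chrX:71118346-71118645) the capitals mark the 171 bases covered by the doxorubicin peak. In RBL2 (chr16:53434221-53434520) the capitals mark the motif TTTGAA, the cell-cycle homology element. CCNE1 (chr19:29811741-29812040) and NF1 (chr17:31094727-31095026) have no base under a peak and are in lower case throughout.
MED12: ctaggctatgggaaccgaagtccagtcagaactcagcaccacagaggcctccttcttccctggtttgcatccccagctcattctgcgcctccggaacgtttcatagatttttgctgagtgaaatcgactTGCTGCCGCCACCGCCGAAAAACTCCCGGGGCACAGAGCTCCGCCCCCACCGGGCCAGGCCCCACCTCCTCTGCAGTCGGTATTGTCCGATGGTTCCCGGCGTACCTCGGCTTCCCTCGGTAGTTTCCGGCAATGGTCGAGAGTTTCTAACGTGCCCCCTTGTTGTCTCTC
RBL2: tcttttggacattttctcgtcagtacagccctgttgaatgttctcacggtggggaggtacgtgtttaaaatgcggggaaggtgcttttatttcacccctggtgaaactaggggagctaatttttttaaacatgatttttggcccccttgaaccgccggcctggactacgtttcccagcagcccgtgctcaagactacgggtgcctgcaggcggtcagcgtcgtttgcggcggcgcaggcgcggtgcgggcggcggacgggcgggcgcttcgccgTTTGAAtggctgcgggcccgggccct
CCNE1: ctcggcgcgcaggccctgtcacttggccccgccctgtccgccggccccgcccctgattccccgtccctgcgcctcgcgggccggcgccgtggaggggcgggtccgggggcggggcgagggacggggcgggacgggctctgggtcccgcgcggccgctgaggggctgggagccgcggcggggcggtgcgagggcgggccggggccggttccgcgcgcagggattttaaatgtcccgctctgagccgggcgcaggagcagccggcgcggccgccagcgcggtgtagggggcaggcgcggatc
NF1: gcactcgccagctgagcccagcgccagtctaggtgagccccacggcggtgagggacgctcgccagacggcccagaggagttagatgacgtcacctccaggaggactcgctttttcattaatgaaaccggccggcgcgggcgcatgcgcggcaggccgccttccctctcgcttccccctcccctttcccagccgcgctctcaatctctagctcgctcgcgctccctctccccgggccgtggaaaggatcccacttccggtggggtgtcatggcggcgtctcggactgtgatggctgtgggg

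The GC content of these windows was 59% in MED12, 59% in RBL2, 81% in CCNE1 and 67% in NF1, against a median of 62.3% over 22132 start-site windows of protein-coding genes. The motif TTTGAA, searched on both strands, was present in RBL2 and absent from the other printed windows, and 12.4% of all start-site windows held it. The E2F-type motif TTTNNCGC, also searched on both strands, was in none of the printed windows and in 8.34% of all. These matches describe letters only.

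Peak numbers rest on summits of few fragments. Summit fragments, taken as whole numbers, and local background were solved from the fold (enrichment over local background) and −log10 p of each row. For 100% of rows the solution matched the −log10 p within 0.002. The commonest background, called the floor, was 0.397 fragments with OTS186935, 0.389 with doxorubicin, 0.428 with the combination and 0.454 with DMSO. At that floor the smallest listed summits held 3, 3, 4 and 3 fragments in the same order, so a gene without a listed peak may still carry fragments below these limits. In the windows of the 8 genes the median summit held 6 fragments with OTS186935, 6 with doxorubicin, 6 with the combination and 5 with DMSO, and the highest held 11, 12, 12 and 20. Fold enrichment and −log10 q are the authors' values for each peak and rank peaks within a list. Neither an input library nor the DNA copy number of these loci was analysed here, and their part in the peak numbers was not tested.

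Across all 8 windows, 37 peaks were listed with OTS186935, 31 with doxorubicin, 16 with the combination and 52 with DMSO. At least 1 peak was present at all 8 genes with OTS186935, at 7 with doxorubicin, at 4 with the combination and at all 8 with DMSO. Of all protein-coding genes, whose median length was 24.2 kb, 71.7%, 65.1%, 50.5% and 78.3% had a peak in the same kind of window in the same order. Among genes of like length (within a factor of 1.5), the share with a combination peak differed by member. It was 78.9% for RB1, 60.5% for RBL2, 48.2% for CDKN2A and 39.25% for CCNE1. For NF1 it was 84.1%, for IGF1R 85.7%, for MED12 46.4% and for DMD 100%. Of coding genes with a DMSO peak, 84.8% also had an OTS186935 peak, 77.3% a doxorubicin peak and 61.2% a combination peak, beside 8, 7 and 4 of the 8 genes here. The genes without a peak in the combination were RBL2, CCNE1, NF1 and MED12, and RBL2 also had none with doxorubicin. Relative to DMSO, the windows held 71.2% as many OTS186935 peaks, 59.6% as many doxorubicin peaks and 30.8% as many combination peaks. Over the joined windows of all protein-coding genes these figures were 80.8%, 63.4% and 38.5%. The exact Poisson 95% intervals of the summed counts, which cover counting error only, were 26.1 to 51 with OTS186935, 21.1 to 44 with doxorubicin, 9.15 to 26 with the combination and 38.8 to 68.2 with DMSO. When each list was shortened to the 29213 peaks of highest −log10 p, the windows held 15 peaks with OTS186935, 17 with doxorubicin, 16 with the combination and 20 with DMSO, a spread of 15 to 20 in place of 16 to 52.

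**Figure D1:**
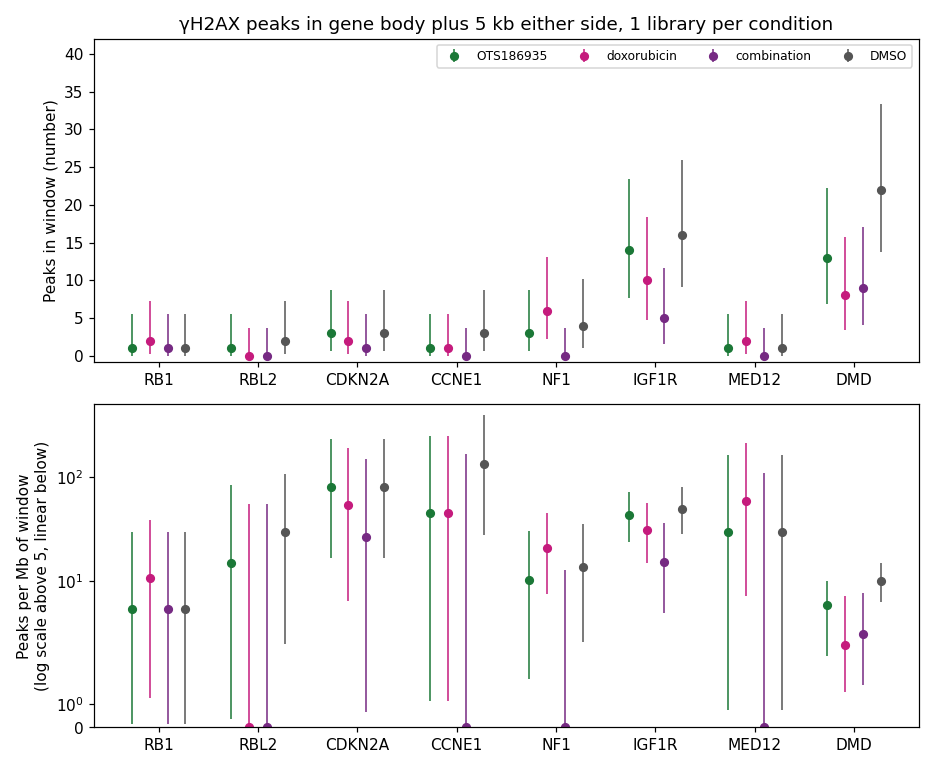
Peaks per gene (upper panel, number) and per Mb of window (lower panel, logarithmic above 5) for each of 8 genes, with OTS186935, doxorubicin, combination and DMSO from left to right within a gene; bars are exact Poisson 95% intervals. IGF1R and DMD hold most peaks, and RBL2, CCNE1, NF1 and MED12 are at 0 in the combination.

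Per Mb of window in DMSO, the order was CCNE1 (134), CDKN2A (79.8), IGF1R (49.1), RBL2 (29.8), MED12 (29.5), NF1 (13.7), DMD (9.86) and RB1 (5.32). Neighbours in this order had overlapping Poisson intervals. IGF1R, with 28.1 to 79.7 peaks per Mb in DMSO, lay wholly above DMD, with 6.18 to 14.9. The densest values rest on short windows of 0.0223 Mb for CCNE1 and 0.0376 Mb for CDKN2A.

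RB1 (chromosome 13, 48303751 to 48481890) had 1 peak with OTS186935, 2 with doxorubicin, 1 with the combination and 1 with DMSO. Protein-coding genes of like length (within a factor of 1.5, 1817 genes) had a median of 3, 3, 2 and 4, on a chromosome that held 5.77, 4.74, 2.03 and 7.41 peaks per Mb. The peak found in all 4 libraries lay 154.1 kb into the gene and overlapped no other annotated gene. Its summit held 4 fragments with OTS186935 (fold 3.03, −log10 q 1.26), 6 with doxorubicin (4.75 and 3.21), 6 with the combination (4.9 and 3.24) and 9 with DMSO (5.19 and 4.51). The Poisson intervals of these counts overlapped in every pairing. Equal-length lists no longer held this peak with OTS186935. The other RB1 peak, listed with doxorubicin alone 16.6 kb from the gene start, overlapped the pseudogene PPP1R26P1 on a local background 4.11 times the floor, and its placing is uncertain. Among genes of like length, the nearest profiles of peaks per Mb over the 4 libraries (by Euclidean distance) were those of PGM5, SRBD1 and SYT9, each with 1, 2 and 1 peaks in the treated libraries and 1, 2 and 2 with DMSO.

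RBL2 (chromosome 16, 53434471 to 53491648), which encodes the pocket protein p130 of the DREAM repressor complex, had 1 peak with OTS186935, 0 with doxorubicin, 0 with the combination and 2 with DMSO. The OTS186935 peak lay 1.2 kb upstream of the gene start and held 4 fragments (fold 3.58). The DMSO peaks lay 0.32 and 30.4 kb into the gene, with 5 fragments and a fold of 4.13 each, and the nearer began 24 bp past the printed start-site window. No position was listed in more than 1 library. With lists of equal length RBL2 had 0 peaks in every library.

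CDKN2A (chromosome 9, 21967752 to 21995324, minus strand) had each of its DMSO peaks listed in at least 1 treated library as well, as did RB1 with its single DMSO peak. It had 3 peaks with OTS186935, 2 with doxorubicin, 1 with the combination and 3 with DMSO, against medians of 1, 1, 0 and 2 over 4162 genes of like length. The peak at 24.3 kb from the gene start (chromosome 9, 21970807 to 21971319 in DMSO) was listed in all 4 libraries. There the summit held 8 fragments with OTS186935 (95% interval 3.45 to 15.8), 4 with doxorubicin (1.09 to 10.2), 6 with the combination (2.2 to 13.1) and 20 with DMSO (12.2 to 30.9). The DMSO interval lay above that of doxorubicin and overlapped those of OTS186935 and the combination. These intervals cover counting error only, with 1 library per condition, and the counts were not adjusted for local background. Local background at this summit was 1.49, 0.725, 1.33 and 1.95 fragments in the same order. A peak just past the 3′ end, about 30 kb from the start, had 9 fragments with OTS186935, 12 with doxorubicin, none listed with the combination, and 19 with DMSO. The peak 5.3 kb into the gene, inside the non-coding gene LOC124902130, had 9 fragments with OTS186935 (fold 6.52) and 12 with DMSO (fold 8.32) and was not listed with doxorubicin or the combination. It lay upstream of the second annotated start, 21974808 to 21975107 on the same chromosome, which had no peak nearer than 3489 bp in any library. Of the genes of like length, 24.2%, 33.4%, 48.2% and 34.7% had as many peaks or more in the order OTS186935, doxorubicin, combination and DMSO. Per Mb, the window had 4.59, 3.84, 3.14 and 3.65 times the density of chromosome 9 in the same order of libraries. Its numbers in lists of equal length were 1, 1, 1 and 3.

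CCNE1 (chromosome 19, 29811991 to 29824312) had 1 peak with OTS186935, 1 with doxorubicin, 0 with the combination and 3 with DMSO, against medians of 1, 1, 0 and 1 over 3786 genes of like length. The peak at the 3′ end of the gene was shared by doxorubicin (9 fragments, fold 5.85) and DMSO (9 fragments, fold 5.47). DMSO alone had a peak 4.7 kb upstream of the start (9 fragments, fold 5.84) and another 0.38 kb into the gene (5 fragments, fold 3.41), which began 168 bp past the printed window. The OTS186935 peak, 6.3 kb into the gene, held 3 fragments, the fewest with which this library lists a peak at the floor. Equal-length lists gave CCNE1 1 peak with doxorubicin, 2 with DMSO and 0 in the other libraries.

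NF1 (chromosome 17, 31094977 to 31377675) had 3 peaks with OTS186935, 6 with doxorubicin, 0 with the combination and 4 with DMSO. Genes of like length (1075) had medians of 4, 3, 2 and 5, and 84.1% of them had at least 1 peak with the combination. A region 35.7 kb into the gene was listed in every library but the combination, with 11 fragments with OTS186935 (fold 6.19), 6 with doxorubicin (4.36) and 10 with DMSO (5.71). Regions at 89.6 kb (OTS186935 and DMSO) and 123.7 kb (OTS186935 and doxorubicin) rested on 4 or 5 fragments. Of the 6 doxorubicin peaks, 4 were listed in no other library, all 187 kb or more from the start, with 3, 3, 5 and 3 fragments. The peak 250.4 kb from the start overlapped the pseudogene AK4P1. DMSO had a peak at the gene start, 0.37 kb in, with 6 fragments (fold 3.86), which also overlapped the non-coding gene MIR4733HG and had no counterpart in a treated library. NF1 has partial pseudogene copies on other chromosomes, so the placing of reads within it is uncertain. The nearest profiles among like-length genes were those of RAPGEF2, CACHD1 and AIG1, with 2, 2 and 2 peaks with OTS186935, 6, 4 and 6 with doxorubicin, 0 in each with the combination, and 4, 3 and 3 with DMSO. In equal-length lists NF1 had 1, 3, 0 and 1 peaks in the order OTS186935, doxorubicin, combination and DMSO.

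IGF1R (chromosome 15, 98648539 to 98964530) had more peaks than most genes of its length. There were 14 peaks with OTS186935, 10 with doxorubicin, 5 with the combination and 16 with DMSO, where 942 genes of like length had medians of 4, 4, 2 and 5 and upper quartiles of 8, 7, 4 and 10. Of those genes, 11.3%, 15.3%, 23.4% and 12.8% had as many peaks or more. With lists of equal length IGF1R had 4 with OTS186935, 5 with doxorubicin, 5 with the combination and 7 with DMSO. Its surroundings were as dense: IGF1R had 42.9, 30.7, 15.3 and 49.1 peaks per Mb, and the last 5 Mb of chromosome 15, whose end lies 3.01 Mb away, had 39.6, 30.8, 17.6 and 47.8. Like-length genes within 5 Mb of a chromosome end (51 genes) had medians of 54.3, 39.8, 19.3 and 67.9 peaks per Mb. The nearest profiles were those of NHSL2, AOPEP and OTUD7A, with 39.6, 43.8 and 39.5 peaks per Mb with OTS186935 and 51.5, 46.1 and 49.4 with DMSO.

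Within IGF1R, 28 regions were listed in 1 library or more and 12 of them in at least 2. The region 242.9 kb into the gene was listed in all 4 libraries, with 4 fragments with OTS186935 (fold 3.58), 7 with doxorubicin (5.76), 12 with the combination (8.24) and 12 with DMSO (7.82). It had the highest fold of any member peak in the combination. Near the gene start, in the stretch shared with the antisense gene IRAIN, a region 1.6 kb in was listed in every treated library and not with DMSO. Its summits held 7 fragments with OTS186935 (fold 3.64), 8 with doxorubicin (4.55) and 7 with the combination (3.87). The highest member fold in DMSO, 9.08 on 18 fragments, lay in the flank past the 3′ end, inside the neighbouring gene PGPEP1L, where OTS186935 had 4 fragments (3.37), the combination 7 (3.98) and doxorubicin no listed peak. A region 7.7 kb in was also listed with OTS186935 (5 fragments), the combination (8 fragments) and DMSO (5 fragments) but not with doxorubicin.

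**Figure D2:**
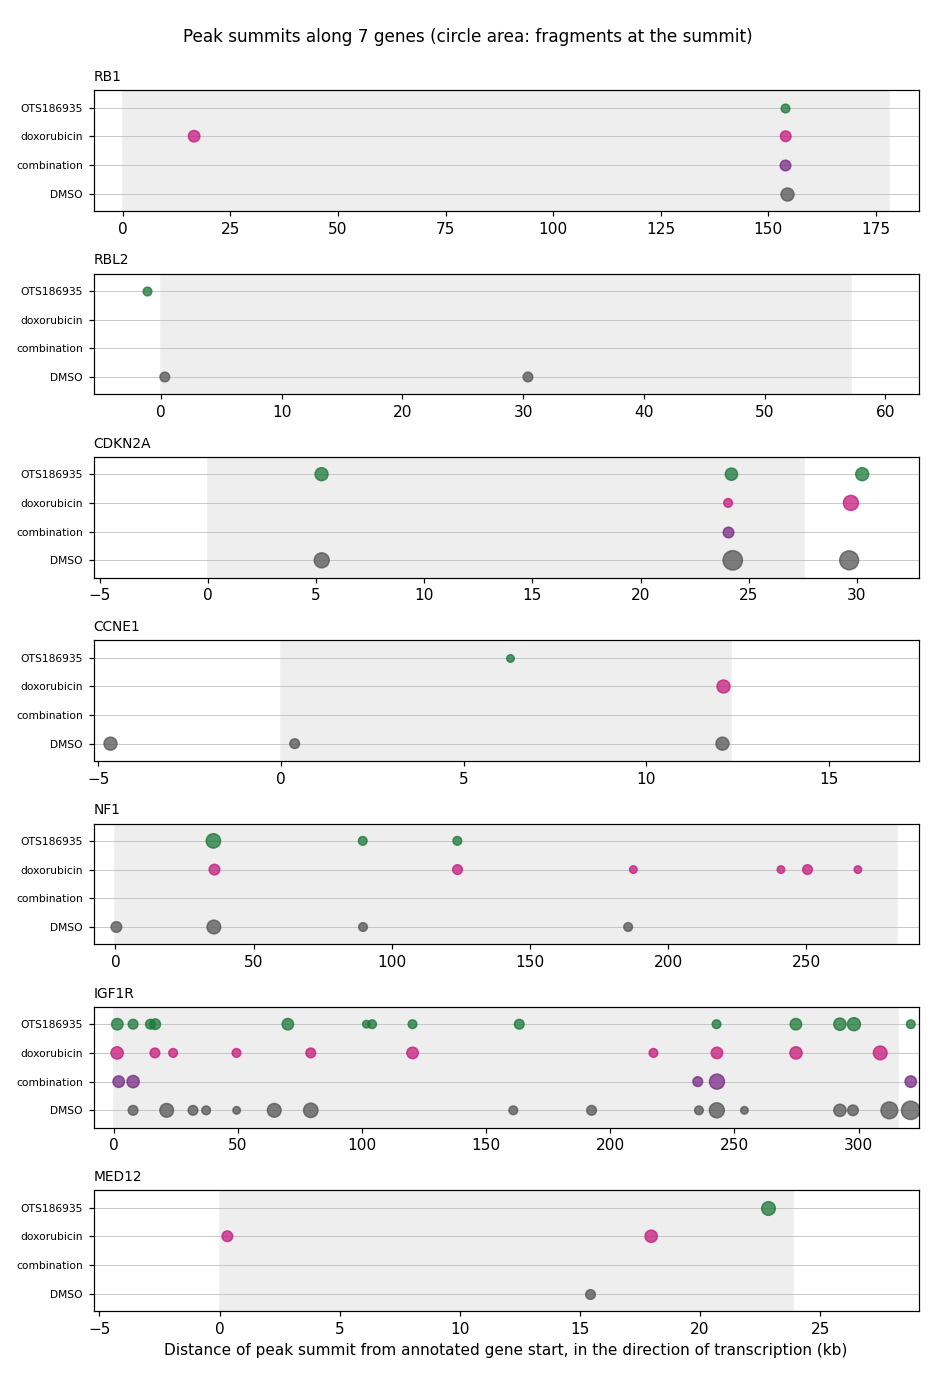
Peak summits along RB1, RBL2, CDKN2A, CCNE1, NF1, IGF1R and MED12, by distance from the gene start in kb (x axis), with 1 line per library (OTS186935, doxorubicin, combination, DMSO from top to bottom); circle area is proportional to the fragments at the summit and grey marks the gene body. RB1, CDKN2A and IGF1R each have 1 position with a circle on all 4 lines, at 154.1, 24.3 and 242.9 kb.

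MED12 (chromosome X, 71118596 to 71142450) had 1 peak with OTS186935, 2 with doxorubicin, 0 with the combination and 1 with DMSO, and no position was listed in more than 1 library. Its peak with OTS186935 lay near the 3′ end, 22.8 kb in, with 10 fragments (fold 4.83, −log10 q 4.05). With doxorubicin a peak of 6 fragments (fold 3.83, −log10 q 2.07) covered the gene start and the capitals of the printed sequence, and another of 8 fragments lay 18 kb in. The DMSO peak, 15.4 kb in, held 5 fragments. The local backgrounds of these summits were 1.97 to 3.22 times the floor. Like-length genes (4212) had medians of 1, 1, 0 and 2 peaks. In equal-length lists MED12 had 1 peak with OTS186935, 1 with doxorubicin and 0 in the other libraries.

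DMD (chromosome X, 31119222 to 33339388, minus strand), at 2220.2 kb the longest of the 8 genes, had 13 peaks with OTS186935, 8 with doxorubicin, 9 with the combination and 22 with DMSO. These are 5.83, 3.59, 4.04 and 9.86 peaks per Mb, below the 14.1, 11.4, 7.26 and 16.3 of the whole X chromosome. The 17 genes of like length had medians of 12, 12, 6 and 17 peaks. Of 68 other coding genes of 1 Mb or more, 44 had more peaks per Mb than DMD with OTS186935, 57 with doxorubicin, 30 with the combination and 31 with DMSO. With lists of equal length the numbers were 8 with OTS186935, 5 with doxorubicin, 9 with the combination and 6 with DMSO, so OTS186935 and the combination then stood above DMSO. The order of these libraries in DMD therefore depended on the lengths of the lists.

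Of the 36 DMD regions, 10 were listed in at least 2 libraries. The region 2072.6 kb from the start, in the last part of the gene, was listed in all 4, with 8 fragments with OTS186935 (fold 6.44), 9 with doxorubicin (6.93), 7 with the combination (5.22) and 10 with DMSO (7.04). A pair of neighbouring regions lay near 747 kb. The one at 747.5 kb held 8 fragments with OTS186935, 6 with the combination and 12 with DMSO, and the one at 746.4 kb held 9 with OTS186935, 8 with doxorubicin, 4 with the combination and had no DMSO listing. The region 1611.2 kb from the start had 3 fragments with OTS186935, 9 with the combination, where its fold of 7.0 was the highest of that library's peaks in DMD, and 6 with DMSO. The highest OTS186935 fold in any of the 8 genes, 7.16 on 9 fragments, lay 1779.9 kb from the DMD start and had no counterpart elsewhere. Regions at 404.3 and 439.9 kb were listed with doxorubicin and the combination and in neither other library, on 4 to 6 fragments. No peak overlapped any of the 7 annotated start-site windows of DMD, a pair of which lie 1 base apart. The nearest lay 1882 bp from such a window, with doxorubicin. The nearest profiles among genes of like length were those of PDE4D, EYS and PTPRD, with 10, 12 and 16 peaks with OTS186935, 5, 11 and 12 with doxorubicin, 8, 8 and 8 with the combination, and 16, 19 and 18 with DMSO.

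**Figure D3:**
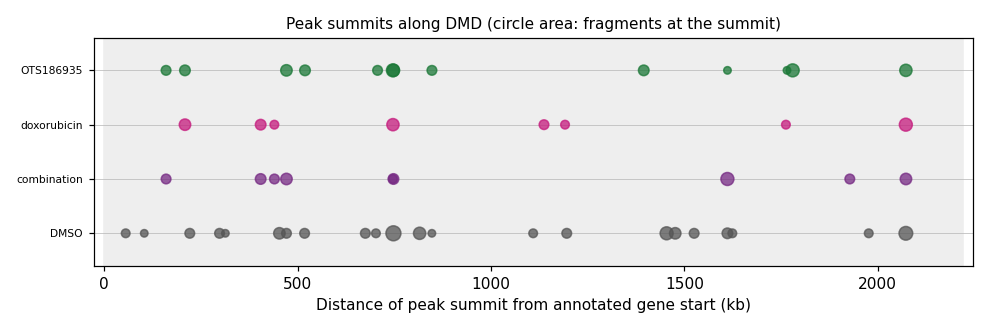
Peak summits along DMD by distance from the gene start in kb (x axis), with 1 line per library (OTS186935, doxorubicin, combination, DMSO from top to bottom); circle area is proportional to the fragments at the summit. The position at 2072.6 kb has a circle on all 4 lines, and the DMSO line holds 22 circles.

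Positions listed in every library thus numbered 1 each in RB1, CDKN2A, IGF1R and DMD, and 0 in RBL2, CCNE1, NF1 and MED12. They were 4 of the 89 regions of the 8 genes, or 4.49%, where 7.36% of all 123975 regions were listed in all 4 libraries. Regions listed in a treated library and not with DMSO were 37 of 89, or 41.6%, against 41.4% of all regions. Regions listed with DMSO alone made up 36% of those in the 8 genes and 23.6% of all. Of these 32 regions in the 8 genes, 17 lay in DMD, or 47.2% of its regions, and 8 in IGF1R, or 28.6%.

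**Figure D4:**
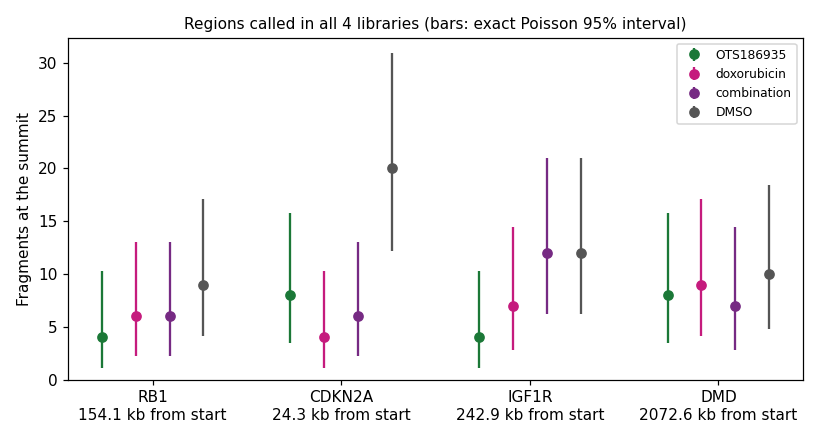
Fragments at the summit (y axis, with exact Poisson 95% intervals) of the 4 regions listed in all libraries, with OTS186935, doxorubicin, combination and DMSO from left to right within a region. In CDKN2A the DMSO summit of 20 fragments has an interval above that of the doxorubicin summit of 4. In RB1, IGF1R and DMD the intervals overlap. The intervals cover counting error only, and the counts are not adjusted for local background.

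Of the 52 DMSO peaks in the windows, 16 overlapped an OTS186935 peak, or 30.8% (exact Clopper-Pearson 95% interval 18.7 to 45.1), against 44.4% of all DMSO peaks. With doxorubicin 9 of the 52 did, or 17.3% (8.23 to 30.3), against 35.1%. In the combination list 10 did, or 19.2% (9.63 to 32.5), against 23.6%. These intervals cover counting error only, and the peaks are not independent: 22 of the 52 lay in DMD and 16 in IGF1R, in 1 library. Without DMD the doxorubicin share was 8 of 30, or 26.7% (12.3 to 45.9), and with lists of equal length 6 of 20, or 30% (11.9 to 54.3), against 40.3% of all DMSO peaks. The OTS186935 share was 11 of 30 (36.7%) without DMD and 5 of 20 (25%) with equal lengths, against 42.9% of all. For the combination it was 6 of 30 (20%) and 6 of 20 (30%), the latter against 35.8%. The median −log10 q was 2.75 for DMSO peaks in the windows and 3.63 for all DMSO peaks. Below a −log10 q of 2 lay 17 of the 52 and 15847 of all 72858. Of the DMSO peaks, 28.8% of those in the windows and 25.6% of all reached a −log10 q of 5. Among these 15 stronger peaks, OTS186935 had a peak at 9 (60%), doxorubicin at 6 (40%) and the combination at 5 (33.3%), against 64.8%, 56% and 40.8% of all DMSO peaks of that strength. At a −log10 q of 2 to 5 these shares were 25%, 10% and 20% of 20 peaks, against 42.4%, 32.1% and 20.7% of all. Below 2 they were 11.8%, 5.88% and 5.88% of 17 peaks, against 25.6%, 17.7% and 10.4% of all. Of the 22 DMSO peaks in DMD, OTS186935 had 5, doxorubicin 1 and the combination 4. CDKN2A had 3 of 3, 2 of 3 and 1 of 3 found in the same order, and RBL2 and MED12 had none found in any treated library. In the other direction, 16 of 37 OTS186935 peaks of the windows (43.2%), 9 of 31 doxorubicin peaks (29%) and 10 of 16 combination peaks (62.5%) overlapped a DMSO peak, against 54.3%, 54.1% and 59.3% over all peaks of those lists.

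**Figure D5:**
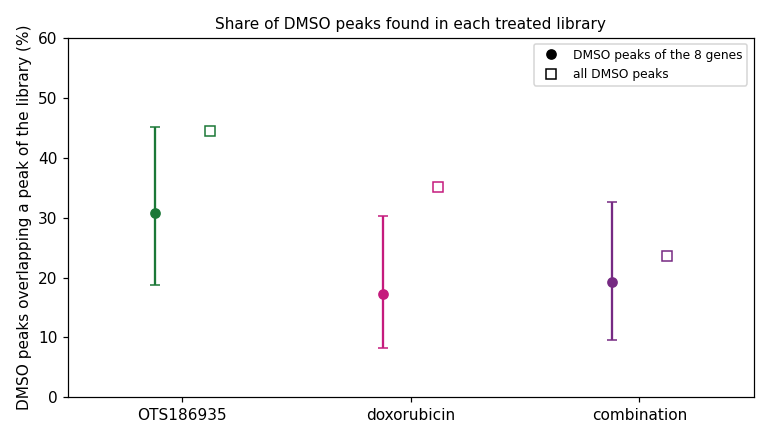
Percent of DMSO peaks that overlap a peak of each treated library (y axis), for the 52 DMSO peaks of the 8 genes (filled circles) and all DMSO peaks (open squares), with exact 95% intervals that cover counting error only. The 8 genes stand at 30.8%, 17.3% and 19.2%, beside 44.4%, 35.1% and 23.6% of all peaks, with OTS186935, doxorubicin and the combination from left to right. Without DMD the values are 36.7%, 26.7% and 20% in that order. With lists of equal length they are 25%, 30% and 30%, beside 42.9%, 40.3% and 35.8% of all peaks.

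Partner genes from the same circuits were counted with the same windows, and longer genes have more room for peaks. The median gene length was 21.2 kb for the RB and G1/S list, 178.5 kb for the Mediator kinase module, 86 kb for growth factor and RAS signalling and 164.7 kb for the dystrophin complex, beside 24.2 kb for all coding genes. Of 24 other genes of the RB and G1/S circuit, 19 had a peak with OTS186935, 14 with doxorubicin, 14 with the combination and 23 with DMSO, or 79.2%, 58.3%, 58.3% and 95.8%, beside 71.7%, 65.1%, 50.5% and 78.3% of all coding genes. The median number of peaks per gene on that list was 1, 1, 1 and 2.5, beside 1, 1, 1 and 2 over all coding genes. The highest DMSO folds were at CCND3, a D-type cyclin gene (7.69, with 13, 8, 5 and 8 peaks in the order OTS186935, doxorubicin, combination, DMSO), CDK2, the kinase partner of cyclin E (7.08, 1 peak with DMSO and 0 in each treated library), and LIN9 of the DREAM complex (7.04). CDKN2B, next to CDKN2A, had 1 peak with OTS186935, 0 with doxorubicin, 1 with the combination and 2 with DMSO.

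Of the 6 other Mediator kinase module genes, 5 had a peak with OTS186935, 4 with doxorubicin, 4 with the combination and 4 with DMSO, or 83.3%, 66.7%, 66.7% and 66.7%, beside 71.7%, 65.1%, 50.5% and 78.3% of all coding genes. Their summed peaks were 16, 8, 5 and 26. Genes of like length to RB1 (178.1 kb, near the list median of 178.5 kb) had higher shares with a peak. These were 92.5%, 90.2%, 78.9% and 94.8% in the same order. The kinase gene CDK19 had the highest DMSO fold (7.57, on 10 fragments) and its 6 DMSO peaks stood beside 4 OTS186935 peaks, 2 doxorubicin peaks and 0 combination peaks. MED13L had 3, 3, 2 and 7 peaks and its paralog MED13 6, 1, 1 and 6 in that order of libraries. CDK8, the paralog of CDK19, had 1 peak with OTS186935 and none elsewhere, and the cyclin gene CCNC 1 with the combination and none elsewhere. Among 27 genes of insulin-like growth factor and RAS signalling, 25, 20, 15 and 22 had a peak in the order OTS186935, doxorubicin, combination and DMSO, or 92.6%, 74.1%, 55.6% and 81.5%, beside 71.7%, 65.1%, 50.5% and 78.3% of all coding genes. INSR, the insulin receptor gene and closest relative of IGF1R, had 10 peaks with OTS186935, 5 with doxorubicin, 6 with the combination and 15 with DMSO. MTOR, the growth-control kinase gene, had 7, 5, 3 and 6 in the same order. RASA1, which like NF1 encodes a RAS GTPase-activating protein, had 1 peak with OTS186935, 1 with doxorubicin and none with the combination or DMSO. IRS2, an adaptor of both receptors, had 1 peak in each treated library and 0 with DMSO. Of 17 genes of the dystrophin-associated complex, 15 had a peak with OTS186935, 14 with doxorubicin, 10 with the combination and 15 with DMSO, or 88.2%, 82.4%, 58.8% and 88.2%, beside 71.7%, 65.1%, 50.5% and 78.3% of all coding genes. The shares of this list, of median length 164.7 kb, also lay below those of genes of like length to RB1. The laminin gene LAMA2 (8.96) and the dystrobrevin genes DTNA (8.25) and DTNB (8.09) had the highest DMSO folds. The sarcoglycan gene SGCE had 1 peak with OTS186935 and none in the other libraries, and the sarcospan gene SSPN had 2 with OTS186935, 0 with doxorubicin, 2 with the combination and 0 with DMSO. UTRN, the paralog of DMD, had 3 peaks with OTS186935, 4 with doxorubicin, 0 with the combination and 4 with DMSO.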

How the data were processed

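Peak lists of 4 γH2AX ChIP-seq libraries were used, 1 per condition and without replicates. Chromatin of formaldehyde-treated cells was sonicated, precipitated with an antibody to phosphorylated H2A.X and made into libraries, per the labels' protocols. MACS2 2.2.7.1, Bowtie2 2.4.2, bedtools 2.30.0 and Picard 2.25.3 are listed, without their roles, with build hg38 in the submitters' processing notes. The caller's settings and use of an input are not stated there. The fold enrichment (a ratio), the −log10 p, the −log10 q and the score of each summit are the authors' deposited values.

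Rows that overlapped or touched were merged, and the row of highest −log10 q gave each peak its values. Whole fragment counts were solved from the deposited fold, (fragments + 1) over (background + 1), and the Poisson −log10 p, accepted within 0.002. Gene extents and start-site sequences came from NCBI RefSeq GRCh38.p14. All 8 genes matched a symbol, and exons were not told apart. An overlap of 1 bp made peaks shared. Regions are peaks joined over the libraries. Intervals are exact at 95%. Named partner genes were those of highest fold in DMSO or in a treated library without a DMSO peak, up to 3 of each kind a list; some of these are not reported here. CDKN2B, UTRN, MYOCD and HMGA2 were added after their values were seen. The genes and the lists were chosen with earlier results of these data known. Window counts, overlaps and the fragment solution were tested on simulated data. Python 3.11.15, numpy 2.4.6, pandas 2.3.3, scipy 1.17.1 and matplotlib 3.10.9 were used.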

Additional observations from a re-analysis of the deposited data

Results flagged for a closer look

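In 3 genes the number of peaks in the full lists moved in opposite directions in the contexts without and with the other drug. With 1 library per condition these differences were not tested. The share of all protein-coding genes with such a change is not given here, so it cannot be called particular to these genes. MED12 rested on 1, 2, 0 and 1 peaks in the order OTS186935, doxorubicin, combination and DMSO. In NF1, 4 doxorubicin peaks listed in no other library held 3, 3, 5 and 3 fragments. At its floor the combination listed no summit below 4 fragments. In DMD, OTS186935 minus DMSO was -9 peaks and the combination minus doxorubicin was 1, a difference of -10. In NF1, doxorubicin minus DMSO was 2 peaks and the combination minus OTS186935 was -3, a difference of 5. In MED12, doxorubicin minus DMSO was 1 peak and the combination minus OTS186935 was -1, a difference of 2. Lists of equal length gave DMD 8, 5, 9 and 6 peaks in the order OTS186935, doxorubicin, combination and DMSO. In that order NF1 had 1, 3, 0 and 1, and MED12 had 1, 1, 0 and 0. DMD then no longer moved in opposite directions: OTS186935 stood above DMSO and the combination above doxorubicin. NF1 and MED12 still moved in opposite directions, on few peaks.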

How the results depend on the processing

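No paired analysis was possible because each condition had 1 library. Summed peaks and numbers of genes with a peak stayed within 1.5 times the reported values when deposited rows were counted, with the gene body alone, with 10 kb flanks and with peaks within 1 kb joined. With a −log10 q of 2 or more, 5 genes and 23 peaks remained with OTS186935 and 18 peaks with doxorubicin. With a −log10 q of 5 or more, genes with a peak numbered 3 with OTS186935, 2 with doxorubicin, 2 with the combination and 5 with DMSO, summed peaks 5, 2, 3 and 15, and 6.67% of DMSO peaks (1 of 15) were found with the combination; here the treated lists were held to the same limit, whereas the 33.3% of the report used the full combination list. Lists of equal length gave 5 genes and 15 peaks with OTS186935, 17 peaks with doxorubicin and 20 with DMSO. Without DMD, summed peaks were 24 with OTS186935, 7 with the combination and 30 with DMSO. These settings count fewer peaks or genes by construction. Shares of DMSO peaks found otherwise stayed within their reported intervals, also with a reciprocal overlap of 50%. For single genes, 188 of 252 counts stayed within 1.5 times and 64 did not. The 188 include counts that could not change. These are the other genes when DMD is left out, and counts of 0 under stricter limits or shorter lists. The median member peak held 5 or 6 fragments. The part of sequencing depth in which weak peaks are listed was not tested.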

Other observations

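Other genes altered in leiomyosarcoma showed peaks in the same windows. Of 7 such genes, 7 had a peak with OTS186935, 3 with doxorubicin, 4 with the combination and 6 with DMSO, or 100%, 42.9%, 57.1% and 85.7%, beside 71.7%, 65.1%, 50.5% and 78.3% of all coding genes. Their median length was 103.1 kb, beside 24.2 kb for all coding genes. ATRX, a chromatin remodeller of the X chromosome, had 6 peaks with OTS186935, 5 with doxorubicin, 3 with the combination and 4 with DMSO, with highest folds of 6.74, 6.33, 5.29 and 6.88. MDM2, a ubiquitin ligase gene, had 1 peak with OTS186935 (6.96-fold), 0 with doxorubicin, 0 with the combination and 2 with DMSO (up to 5.5-fold). MYOCD, the coactivator of smooth muscle genes, had 3, 1 and 1 peaks in the treated libraries, in the order OTS186935, doxorubicin and combination, and 4 with DMSO, and the chromatin gene HMGA2 had 6, 3 and 3 and 5.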
